A study of Mus musculus with 6 samples.

Results

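Lipid synthesis, storage and cholesterol genes were examined in metastasis-initiating cells (MICs) and non-MICs sorted from mouse mammary tumors. The 40 genes are a list set by name and function, with no threshold on their values, and all 40 were among the 22310 genes of the deposited table. They fall into 3 classes, with 13 genes of fatty acid synthesis, 10 of triglyceride turnover and 17 of sterol synthesis, each class with the transcription factors or regulators that belong to it. The cells came from primary tumors of MMTV-PyMT mice, bred on FVB/N, in which the mouse mammary tumor virus promoter drives the polyomavirus middle T oncoprotein in mammary epithelium, and the genotype is otherwise given as wild type. The mice were adult by the study's methods. Tumor cells were plated overnight in DMEM/F12 that held 20 ng/ml hEGF, insulin at 10 µg/ml, penstrep and 2% FBS, and were sorted the next day into Lin-CD24+CD90+ cells, which are the MICs, and Lin-CD24+CD90- cells, which are the non-MICs, where Lin stands for the blood and endothelial surface proteins Ter119, CD31 and CD45. Both populations therefore share the transgene, the serum and the insulin, and normal mammary tissue is not among the samples used here. RNA of 3 libraries per population was sequenced, numbered 1 to 3 in both. The question the comparison addresses is whether the transcripts of lipid synthesis and storage differ between cells that start metastases and the other tumor cells of the CD24+ gate. The study states that n counts independent experiments or tumors, while the labels do not say that libraries came from separate animals, so p-values measure the spread between these libraries, which may be technical in part.

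Cells build fatty acids in the cytosol from acetyl-CoA. Acetyl-CoA carboxylase makes malonyl-CoA, fatty acid synthase joins it into palmitate, and elongases and desaturases lengthen the chain and add double bonds. Fatty acids that are not used at once are joined to glycerol as triglycerides and kept in lipid droplets, from which lipases release them again. Cholesterol is made from the same acetyl-CoA through mevalonate, squalene and lanosterol. The factors SREBP1 and SREBP2, the products of Srebf1 and Srebf2, are held in the endoplasmic reticulum when sterols are plentiful and drive the genes of both synthetic pathways when sterols fall, and insulin raises SREBP1 activity. Many mammary tumors synthesize their own fatty acids even where serum lipid is available.

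The promoter sequences of 4 members are shown, taken from RefSeq on GRCm38.p6. Windows from 250 bases before to 50 bases after each start site were searched on both strands for the inverted CCAAT box ATTGG, read by the factor NF-Y, for the sterol regulatory element TCACNCCAC and for the E-box CACGTG. A match describes the letters of a window and is not a measured binding site. Of the 40 members, 32 were matched to such a window, and Scd1, Scd2, Fads1, Dgat1, Dgat2, Fdps, Fdft1 and Sqle were not. The 250 bases before the start are printed from 5′ to 3′ on the strand of the gene, with the matched letters in capitals. Hmgcs1 (plus strand, chr13:119690101-119690350) is shown as the sterol gene with both a sterol regulatory element, 137 bases before the start, and several CCAAT boxes. Fasn (minus strand, chr11:120824548-120824797) is shown for fatty acid synthesis, and its CCAATTGG is a box on each strand that overlap each other. Sc5d (minus strand, chr9:42264301-42264550) and Mgll (plus strand, chr6:88724162-88724411, the first of 2 start sites) are shown because both were higher in MICs in every pair and both hold an E-box, 98 and 44 bases before the start. The window of the second Mgll start site holds none of these motifs. Insig1 was also higher in every pair with an E-box and is not shown, while Msmo1 and Thrsp were higher in every pair without one.
Hmgcs1: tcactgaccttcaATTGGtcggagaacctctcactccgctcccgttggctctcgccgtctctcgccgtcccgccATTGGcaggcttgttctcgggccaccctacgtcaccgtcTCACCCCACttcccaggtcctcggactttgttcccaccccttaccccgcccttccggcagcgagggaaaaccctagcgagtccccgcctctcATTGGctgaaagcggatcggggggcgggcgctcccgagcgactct
Fasn: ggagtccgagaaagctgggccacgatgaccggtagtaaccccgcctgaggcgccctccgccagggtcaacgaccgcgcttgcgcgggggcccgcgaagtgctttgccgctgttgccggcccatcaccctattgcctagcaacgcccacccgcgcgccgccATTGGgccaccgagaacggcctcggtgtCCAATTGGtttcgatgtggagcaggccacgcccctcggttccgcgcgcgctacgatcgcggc
Sc5d: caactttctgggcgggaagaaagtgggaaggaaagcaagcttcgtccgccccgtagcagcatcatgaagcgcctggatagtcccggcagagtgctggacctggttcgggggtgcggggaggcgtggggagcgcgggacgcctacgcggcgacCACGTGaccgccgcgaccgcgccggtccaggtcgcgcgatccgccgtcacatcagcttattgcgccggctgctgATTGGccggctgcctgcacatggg
Mgll: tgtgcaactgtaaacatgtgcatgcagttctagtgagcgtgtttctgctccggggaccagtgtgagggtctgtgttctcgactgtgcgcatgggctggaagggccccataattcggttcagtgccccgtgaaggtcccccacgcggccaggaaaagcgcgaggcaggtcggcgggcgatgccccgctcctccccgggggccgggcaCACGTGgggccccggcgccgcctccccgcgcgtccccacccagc

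An ATTGG on either strand was found in the windows of 13 of the 14 sterol synthesis genes that had one, or 92.9%, of 7 of 10 fatty acid synthesis genes and of 3 of 8 triglyceride genes, while 41.1% of all 27025 genes with windows of this length hold it. The sterol regulatory element was found in Hmgcs1 and in Mlxipl, against 1.44% of all genes. CACGTG was found in 3 sterol genes (Dhcr7, Sc5d and Insig1), 2 fatty acid genes (Elovl5 and Mlxipl) and 3 triglyceride genes (Plin2, Lipe and Mgll), against 8.09% of all genes. Of the 8 genes with CACGTG, Sc5d, Insig1 and Mgll were higher in MICs in all pairs and Mlxipl, Plin2 and Lipe were lower in all pairs, Plin2 not so after rescaling by TMM factors.

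The deposited values are gene counts scaled to the same total in every library, and they are called scaled counts here. Before scaling the libraries held between 31467281 and 51759769 reads assigned to genes, with replicate 3 the deepest in both populations, and 1 read is worth between 0.676 and 1.11 scaled counts. The sort was visible in Thy1, the gene for CD90, with scaled counts of 1509, 301 and 755 in the MIC libraries, replicates 1, 2 and 3, against 16.9, 21.1 and 12.6 in the non-MIC libraries. Cd24a, for which both populations were gated, was present in all libraries, between 11309 and 19406. Libraries of the same number departed in the same way from the mean of their population, which is why they are treated as pairs. Differences within the 3 same-numbered pairs are given throughout, as MIC minus non-MIC in log2(scaled count + 1) and in the order of pairs 1, 2 and 3, and scaled counts are given in the order of replicates 1, 2 and 3. Pair 3 differed little in this list, with a median size of the difference of 0.047 on the log2 scale over the 40 genes, 0.205 over the whole table and 0.109 over the more abundant 50% of them.

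Between the populations, the lipid genes differed by small amounts and most stood lower in MICs. Tested with limma on log2(scaled count + 1), with adjustment over all 22310 genes, none of the 40 members passed an adjusted p of 0.05. None of the other genes did either, so that 0 of 22310 genes (0%) were called, the smallest adjusted p-value was 0.816, and an unadjusted p-value under 0.05 was found for 322 genes. Of the 40 members, 29 had a log2 fold change below 0 and 11 above 0. Of all 22310 genes, 12081 were below 0 and 10229 above 0. The median was -0.17 over the members against -0.04 over all genes. The 11155 genes above the median mean value include 37 of the 40 members. Of these 11155 genes, 6604 were below 0 and 4551 above 0, with a median of -0.076. For 33 of the 40 the difference was smaller than the SD between replicates, as it was for 17395 of the 22310 genes. Here and below this SD is taken within a population, so it includes the spread between pairs. Its median over the members was 0.57, against 0.22 for the SD of the differences between pairs. The medians of the classes were -0.24 for fatty acid synthesis, -0.12 for triglyceride turnover and -0.15 for sterol synthesis. In the same fit with 1 library left out, which leaves the partner of that library unmatched, some of these medians were above 0. Those of fatty acid and sterol synthesis stood at 0.11 and 0.28 without MIC replicate 2 and at 0.077 and 0.031 without non-MIC replicate 3, that of sterol synthesis at 0.085 without non-MIC replicate 1 and that of triglyceride turnover at 0.041 without non-MIC replicate 2. With whole pairs left out and the replicate number as a block, the medians of all 3 classes stayed below 0. With the replicate number as a block, limma called 29 genes of the table (0.13%), none of them a member. At an unadjusted p-value under 0.05 in that fit, 2 of the 40 members, Mgll and Msmo1, stood higher in MICs, against 5.24% of all genes, and 4 of the 40, Acaca, Fasn, Mlxipl and Srebf2, stood lower, against 5.97% of all genes.

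Counted by pair, 18 members (45.0%) were lower in MICs in all 3 pairs, against 18.8% of all genes, and 5 were higher in all 3, which is 12.5% of members and 12.5% of all genes, while 17 had mixed directions. Among the more abundant 50% of genes, to which 37 of the 40 members belong, 28.5% were lower and 13.1% higher in all pairs. In the 3 classes the genes lower in all 3 pairs were 6 of 13 for fatty acid synthesis, 5 of 10 for triglyceride turnover and 7 of 17 for sterol synthesis, but after rescaling by TMM factors these numbers were 4, 2 and 4, and after quantile normalization 7, 4 and 4. Acaca, Fasn, Gpam, Plin2, Pnpla2, Srebf2, Fdft1 and Lss were the genes that no longer stood lower in every pair after TMM rescaling, and Gpam, Srebf2, Mvd and Fdft1 those after quantile normalization. The genes higher in all 3 pairs were 1, 1 and 3, with 1, 1 and 4 after TMM rescaling and 2, 1 and 5 after quantile normalization. The share of all genes that were lower in all pairs was 16.4% and 16.5% after these rescalings. The members are shown with their differences in each pair in the plot of pair differences by gene, and the shares in the bar plot of directions.

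**Figure D1:**
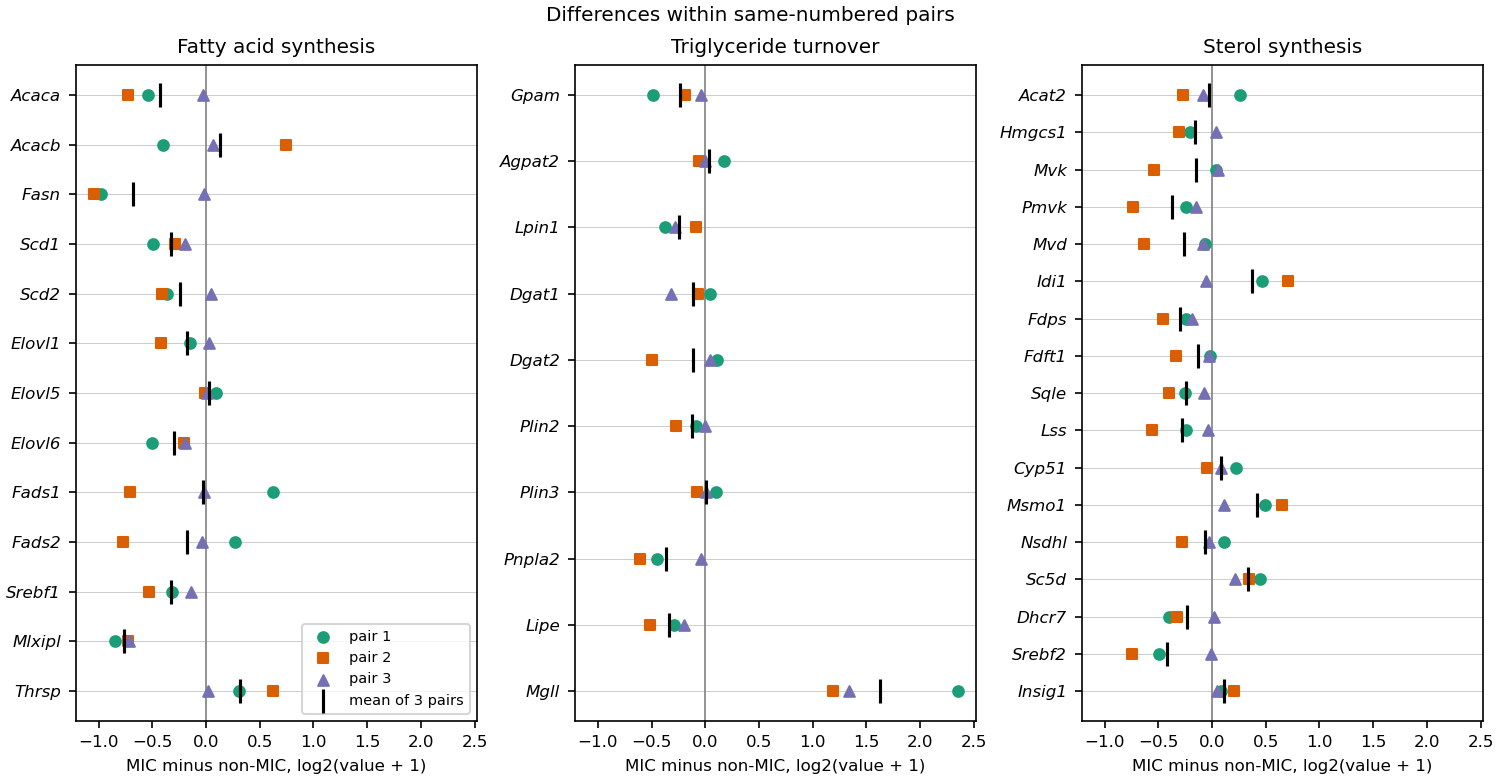
Difference between the MIC and the non-MIC library of each pair, in log2(scaled count + 1), for the 40 genes in 3 panels, with one symbol per pair and a black tick for the mean of the 3 pairs. The symbols of pair 3 lie close to 0 for most genes, and Mgll lies apart from all others with 2.35, 1.19 and 1.34 in pairs 1, 2 and 3.

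**Figure D2:**
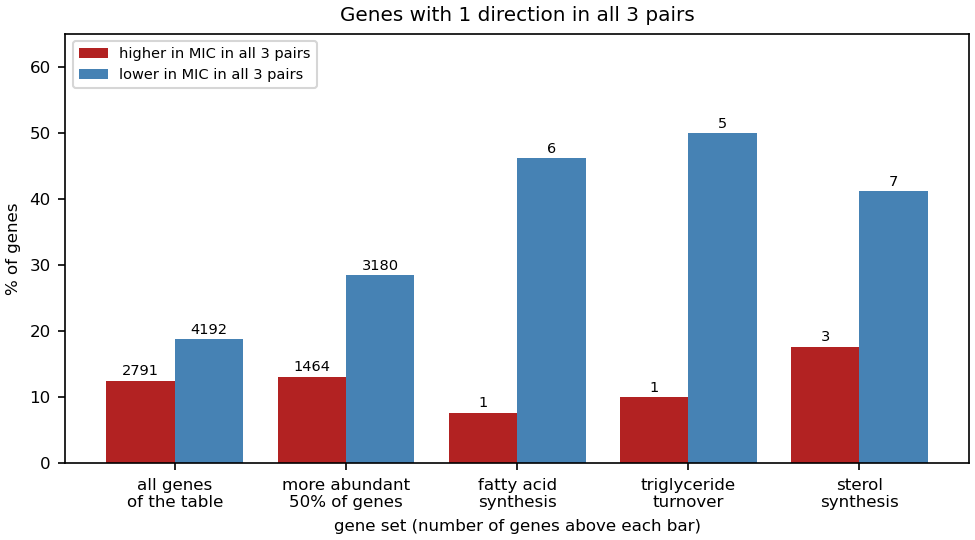
Percent of genes that were higher (red) or lower (blue) in MICs in all 3 same-numbered pairs, for all genes, the more abundant 50% of genes and the 3 classes, with the number of genes above each bar. The blue bars stand at 46.2%, 50% and 41.2% for the classes against 18.8% and 28.5% for the gene sets at the left, and after TMM rescaling the numbers of genes under the 3 blue bars drop from 6, 5 and 7 to 4, 2 and 4.

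Among the genes of fatty acid synthesis, the first enzymes of the pathway stood lower in MICs in pairs 1 and 2 and were level in pair 3. Fasn (ENSMUSG00000025153, chromosome 11 of GRCm38, 120805846 to 120824547, minus strand), which encodes fatty acid synthase, had scaled counts of 17469.5, 14564 and 31427 in the MIC libraries, replicates 1, 2 and 3, against 34410.4, 30039.8 and 31773 in the non-MIC libraries. The non-MIC libraries lay close together and MIC replicates 1 and 2 lay far below them, while MIC replicate 3 lay among them, so the groups overlapped. The MIC library held 0.508, 0.485 and 0.989 of the Fasn count of its pair. The log2 fold change was -0.68 ± 0.30 (standard error), and limma's adjusted p was 1 without the block and 0.417 with it, where the standard error was 0.23.
Acaca (ENSMUSG00000020532, chromosome 11, 84129672 to 84401651, plus strand) encodes acetyl-CoA carboxylase 1, which commits acetyl-CoA to the pathway. Its scaled counts were 2393, 1701 and 4840.2 in the MIC libraries and 3479, 2822 and 4928 in the non-MIC libraries, in the order of replicates 1 to 3. As for Fasn, the difference lay in pairs 1 and 2, with -0.54, -0.73 and -0.026 in pairs 1, 2 and 3 on the log2 scale. Of its exon sequence, 26.8% also occurs in other genes. That is a share of sequence and not of reads, so how far the Acaca count is affected is not known.
Acacb, which encodes the carboxylase of the mitochondrial surface, was scarce, with scaled counts between 16.9 and 44.6, and its pairs differed in direction.

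In 11 of the 13 genes of fatty acid synthesis the difference between the populations was smaller than the SD between replicates, and the desaturases show this most plainly. Scd1, a stearoyl-CoA desaturase that makes oleate, had scaled counts of 8278, 4163 and 17355 in the MIC libraries, replicates 1, 2 and 3, against 11642, 5082 and 19898 in the non-MIC libraries. MICs were lower in each pair, by differences of -0.49, -0.29 and -0.20, while replicate 3 held several times the count of replicate 2 in both populations. Elovl6, which extends palmitate to stearate, had 2007, 2889.7 and 3988 in MICs against 2842, 3326 and 4583 in non-MICs, and was lower in MICs in each pair with -0.50, -0.20 and -0.20. Scd2, the desaturase most abundant here, ranged from 13378 to 58004, the lowest and the highest both being MIC libraries, with a log2 fold change of -0.24 and a 95% confidence interval of -0.67 to 0.18 in limma with the block.
The elongases of longer chains, Elovl1 and Elovl5, had the narrowest ranges of the class, with Elovl5 between 3145 and 3740 in all 6 libraries and an interval of -0.31 to 0.37 around a log2 fold change of 0.029. Elovl1 had a log2 fold change of -0.18. Fads1 and Fads2, the desaturases of polyunsaturated fatty acids, were higher in MICs in pair 1 (0.63 and 0.27) and lower in pair 2 (-0.70 and -0.77), and the sign of their small log2 fold changes, -0.033 and -0.18, depended on the scaling or the test used.

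The transcription factors of lipogenesis were lower in MICs in each pair. Srebf1 (ENSMUSG00000020538, chromosome 11, 60199089 to 60222581, minus strand), the gene for SREBP1, had scaled counts of 3755, 3544 and 3221 in the MIC libraries, replicates 1, 2 and 3, against 4671, 5124 and 3550.2 in the non-MIC libraries. The groups overlapped through 1 library, since MIC replicate 1 lay above non-MIC replicate 3. Its differences were -0.31, -0.53 and -0.14, and its log2 fold change of -0.33 did not pass (limma with the block, adjusted p = 0.459). Mlxipl (ENSMUSG00000005373, chromosome 5, 135089890 to 135138382, plus strand) encodes ChREBP, a glucose-responsive factor, and was scarce, with 38.8, 15.6 and 83.8 in the MIC libraries and 70.9, 26.4 and 138 in the non-MIC libraries. Its differences were alike in all pairs, -0.85, -0.73 and -0.71, and its log2 fold change of -0.76 was the largest of the class in size (limma with the block, adjusted p = 0.434). Thrsp, a lipogenic protein induced by thyroid hormone and carbohydrate, stood in the opposite direction, with 89.5, 62.3 and 110.2 in MICs against 72.0, 40.1 and 109 in non-MICs and differences of 0.31, 0.62 and 0.02, the last of which was near 0.
In the median of the 13 genes the differences of the pairs were -0.36, -0.42 and -0.019. Over all genes of the table these medians were -0.015, 0.039 and -0.051. After TMM rescaling the median of the 13 genes in pair 3 was 0.051, against 0.0073 over all genes. The median difference of 8 markers of luminal epithelial cells (Epcam, Cdh1, Krt8, Krt18, Krt19, Esr1, Elf5 and Gata3) was -0.37, -0.26 and 0.016, below 0 in pairs 1 and 2 alone. Their summed scaled count was 591380, 212383 and 449932 in the MIC libraries against 700505, 277738 and 425186 in the non-MIC libraries, and all 8 log2 fold changes were below 0. Epcam and Elf5 were lower in MICs in all pairs, and Elf5 passed in edgeR and DESeq2 with the block (adjusted p = 0.000449 and 0.00253) but not in limma (0.139). The part of these markers in the lower levels of the lipid genes was not tested.

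**Figure D3:**
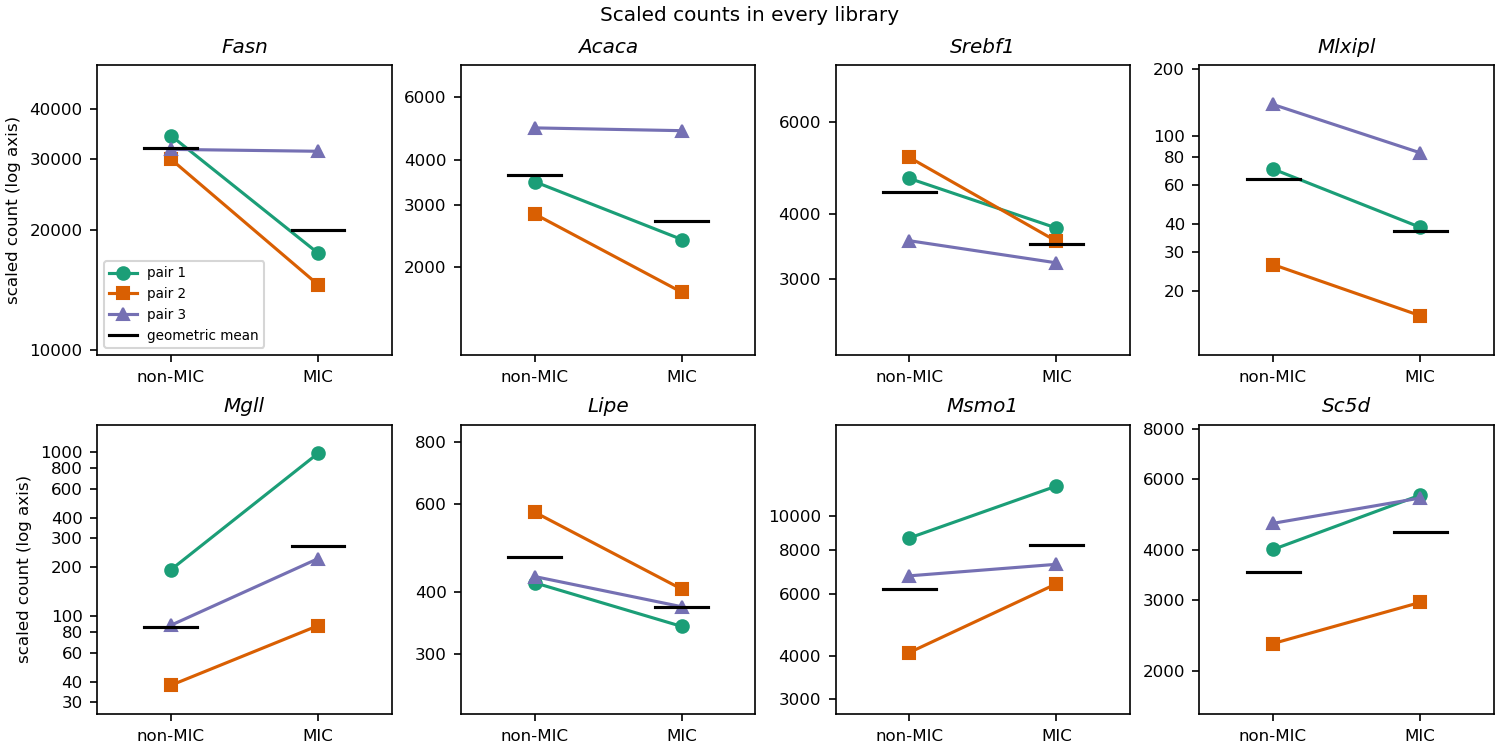
Scaled counts of 8 lipid genes in each library on log axes, with lines joining the non-MIC and the MIC library of the same number and a black bar for the geometric mean of each population. The MIC points of Fasn and Acaca lie well below their partners in pairs 1 and 2 and level with them in pair 3, those of Mgll lie above their partners in every pair, and Lipe is the one gene whose 2 populations do not overlap.

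Triglyceride turnover held the one member that passed the adjusted threshold of 0.05 in any of the tests, the lipase gene Mgll. Mgll (ENSMUSG00000033174, chromosome 6, 88724412 to 88828360, plus strand) encodes monoglyceride lipase, which releases the last fatty acid from the glycerol backbone. Its scaled counts were 988, 87.9 and 225 in the MIC libraries, replicates 1, 2 and 3, against 193, 38.0 and 88.4 in the non-MIC libraries. The MIC library was above its partner in each pair, by 2.35, 1.19 and 1.34 on the log2 scale, although replicates of a population differed by still more and MIC replicate 2 lay below non-MIC replicates 1 and 3. For its log2 fold change of 1.63, limma's standard error and adjusted p were 0.94 and 1 without the block, and 0.29 and 0.0547 with it. On the recovered reads and with the block, edgeR's quasi-likelihood test gave an adjusted p-value of 3.66e-08 and DESeq2 one of 7.83e-06, so that Mgll passed in both, where 1.04% and 0.735% of the genes tested were called higher in MICs. Without the block it passed in neither (adjusted p = 1 in edgeR and in DESeq2). Without MIC replicate 1 its log2 fold change was 0.69, and without MIC replicate 2 it was 2.43, in the fit without the block. Without pair 1, limma with the block gave 1.26 (adjusted p = 0.991), and without pair 2 it gave 1.85 (adjusted p = 0.0263).

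Markers of basal and myoepithelial cells moved with Mgll. The summed scaled count of 8 such markers (Krt5, Krt14, Krt17, Acta2, Myh11, Cnn1, Trp63 and Oxtr) was 424539, 24227 and 72111 in the MIC libraries against 143882, 24086 and 47086 in the non-MIC libraries, and 5 of the 8 were higher in MICs in all pairs, 4 of them called by limma with the block. MIC replicate 1 was the highest library and replicate 2 the lowest pair both for this sum and for Mgll, and although the sums of pair 2 were nearly equal, 5 of the 8 markers were higher in its MIC library. The median difference of the 8 markers was 2.08, 1.30 and 1.19 in pairs 1, 2 and 3. Of 8 fibroblast markers, 4 were higher in MICs in all pairs, while 12.5% of all genes were. Their sums were 2167, 673 and 2009 in the MIC libraries, replicates 1, 2 and 3, against 1157, 742 and 588 in the non-MIC libraries, so that pair 2 went the other way. The median difference of the 8 fibroblast markers was 0.096, 0.13 and 1.76 in pairs 1, 2 and 3. The part of these markers in the Mgll difference was not tested, and in bulk libraries of sorted cells more cells of a type and more RNA per cell cannot be told apart. Markers of fat cells, in which several genes of the class are abundant, were at or near 0, since the 5 of 10 adipocyte markers in the table reached at most 10.0 scaled counts and Plin1, the lipid droplet coat of fat cells, had at most 1.40.

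The other lipases stood lower in MICs in each pair, although Pnpla2 did not after TMM rescaling. Lipe (ENSMUSG00000003123, chromosome 7, 25379527 to 25398710, minus strand), which encodes hormone-sensitive lipase, had scaled counts of 341, 405 and 373 in the MIC libraries, replicates 1, 2 and 3, against 417, 578 and 429 in the non-MIC libraries. Every MIC library was below every non-MIC library, which was the case for 1 of the 40 members and for 3.55% of all genes, while no member had all MIC libraries above, against 2.69% of all genes. The log2 fold change was -0.33 ± 0.27 (standard error) and did not pass (limma with the block, adjusted p = 0.521). Pnpla2, which encodes adipose triglyceride lipase (ATGL), the enzyme of the first step of lipolysis and one that the study inhibits, had 2929.7, 1859 and 2917 in the MIC libraries and 4004, 2823 and 2991 in the non-MIC libraries. Its differences were -0.45, -0.60 and -0.036, large in pairs 1 and 2 and near 0 in pair 3 (limma with the block, adjusted p = 0.448).

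Of the genes that assemble and coat triglycerides, Gpam, Lpin1 and Plin2 stood lower in MICs in each pair, and the others had mixed directions. Gpam and Plin2 did not stand lower in each pair after TMM rescaling, nor did Gpam after quantile normalization. In limma with the block the log2 fold change was -0.24 for Gpam (95% confidence interval -0.63 to 0.16) and -0.25 for Lpin1 (-0.63 to 0.13). Gpam, the acyltransferase that starts glycerolipid synthesis, had 546, 765 and 709 in MICs against 765, 871 and 729 in non-MICs, with differences of -0.49, -0.19 and -0.039. Lpin1, a phosphatidate phosphatase, was lower in MICs in each pair with -0.37, -0.087 and -0.28, but its replicates spread far more, with 362, 601 and 1492 in the MIC libraries and 469, 638 and 1813 in the non-MIC libraries. Agpat2, which acts between Gpam and Lpin1, stayed between 1119 and 1624, with an interval of -0.32 to 0.39 around a log2 fold change of 0.038.
Dgat1 and Dgat2 encode the acyltransferases of the last step of triglyceride synthesis, which the study blocks with inhibitors, and their values are given for that reason, chosen after they were seen. Dgat1 had scaled counts of 835, 1211 and 701 in MICs against 811, 1267 and 873 in non-MICs. Dgat2 had 129, 175 and 142 in the MIC libraries and 119.6, 246 and 137 in the non-MIC libraries. The directions differed between pairs for both, and in limma with the block the 95% confidence interval was -0.49 to 0.26 for Dgat1 and -0.67 to 0.45 for Dgat2, around a log2 fold change of -0.11 for either gene.
Of the lipid droplet coats, Plin2 had 21275, 26089 and 26475 in MICs against 22602, 31518 and 26490.2 in non-MICs, and its differences of -0.087, -0.27 and -0.00085 end in a pair that was level. Plin3 ranged from 1472 to 2619 with a log2 fold change of 0.011 (interval -0.33 to 0.35 with the block in limma). For both coats the difference between the populations was smaller than the SD between replicates.

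Sterol synthesis genes differed in both directions in pair 1, stood mostly lower in MICs in pair 2 and differed little in pair 3. The median differences over the 17 genes were -0.021, -0.33 and -0.024, and the median sizes of the difference were 0.24, 0.40 and 0.056. Over all genes of the table the median differences were -0.015, 0.039 and -0.051. After TMM rescaling those of the 17 genes were 0.020, -0.44 and 0.045. Srebf2 (ENSMUSG00000022463, chromosome 15, 82147181 to 82205379, plus strand), the gene for SREBP2, had scaled counts of 7498, 5371 and 6583 in the MIC libraries, replicates 1, 2 and 3, against 10542, 9028 and 6635 in the non-MIC libraries. It was lower in MICs by a wide margin in pairs 1 and 2 and level in pair 3 (-0.49, -0.75 and -0.011), and the fitted log2 fold change was -0.42 ± 0.24 by standard error (limma with the block, adjusted p = 0.43). Insig1, whose protein holds the SREBPs in the endoplasmic reticulum and which is itself an SREBP target, was slightly higher in MICs in each pair, with 5065, 3243 and 3755 in the MIC libraries and 4783, 2817 and 3639.9 in the non-MIC libraries and differences of 0.083, 0.20 and 0.045.

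Enzymes of the mevalonate part of the pathway differed in direction, with Pmvk and Mvd lower in MICs in each pair, Mvd not so after quantile normalization. Hmgcs1, which makes HMG-CoA, ranged from 4542 to 13869, and its differences of -0.21, -0.31 and 0.034 were above 0 in pair 3 alone. Pmvk, phosphomevalonate kinase, had 2220.2, 460.5 and 2446 in MICs against 2623, 769 and 2706 in non-MICs, and Mvd, which makes isopentenyl pyrophosphate, had 1711, 442 and 1033 in the MIC libraries and 1797, 688 and 1095 in the non-MIC libraries. The differences were -0.24, -0.74 and -0.15 for Pmvk and -0.071, -0.64 and -0.084 for Mvd, and for both replicate 2 was the lowest library by far in either population. Mvk, the kinase before Pmvk, was level in pairs 1 and 3 and lower in MICs in pair 2 (-0.54). Idi1, the isomerase that follows Mvd, stood higher in MICs in pairs 1 and 2 (0.47 and 0.70) and lower in pair 3 (-0.056). Acat2, the cytosolic thiolase at the head of the pathway, differed in direction between pairs, and its log2 fold change of -0.03 was above 0 with quantile normalization.

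The enzymes that make and close squalene stood lower in MICs in each pair by small amounts, although not for Fdft1 and Lss after TMM rescaling or for Fdft1 after quantile normalization. Fdps, farnesyl diphosphate synthase, had 617, 219 and 814 in MICs against 728, 302 and 925 in non-MICs, and Fdft1, squalene synthase, had 5204, 2361 and 5806 in the MIC libraries and 5279, 2981 and 5936 in the non-MIC libraries. Their differences in pairs 1, 2 and 3 were -0.24, -0.46 and -0.18 for Fdps and -0.021, -0.34 and -0.032 for Fdft1. Sqle, squalene epoxidase, a rate-limiting enzyme of the pathway, had 5733, 3619 and 6558 in MICs against 6838, 4775 and 6907 in non-MICs, with differences of -0.25, -0.40 and -0.075. Lss, which closes squalene epoxide to lanosterol, had 3715, 1107 and 3701 in the MIC libraries and 4385, 1631 and 3804 in the non-MIC libraries, with differences of -0.24, -0.56 and -0.04. In all 4 genes the largest difference was in pair 2, and the adjusted p-values in limma with the block lay between 0.532 and 0.78.

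By contrast with these, Msmo1 and Sc5d, which act on lanosterol's descendants, stood higher in MICs in each pair. Msmo1 (ENSMUSG00000031604, chromosome 8, 64718139 to 64733792, minus strand), the methylsterol oxidase that takes part in removing methyl groups of lanosterol, had scaled counts of 12209, 6416 and 7296 in the MIC libraries, replicates 1, 2 and 3, against 8675, 4081 and 6763 in the non-MIC libraries. Sc5d (ENSMUSG00000032018, chromosome 9, 42251595 to 42264256, minus strand), the lathosterol desaturase, had 5479.9, 2961 and 5389 in MICs against 4011, 2338 and 4662 in non-MICs. The pairs stayed in order while the groups overlapped, with differences of 0.49, 0.65 and 0.11 for Msmo1 and 0.45, 0.34 and 0.21 for Sc5d. The log2 fold changes were 0.42 (standard error 0.35) and 0.33 (standard error 0.35), and their adjusted p-values in limma with the block were 0.423 and 0.452. Cyp51, the demethylase that acts before Msmo1, had a log2 fold change of 0.085 (interval -0.27 to 0.44), Nsdhl, which acts with Msmo1, one of -0.062 (-0.41 to 0.29), and Dhcr7, the last enzyme before cholesterol, one of -0.24 (-0.61 to 0.13), each with the block in limma and with mixed directions between pairs.

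Replicate 2 carried the lowest sterol transcripts of both populations. In 14 of the 17 sterol genes (82.4%) and in 9 of the 13 fatty acid synthesis genes (69.2%) replicate 2 was the lowest library in MICs and also in non-MICs, against 2 of 10 triglyceride genes (20.0%), 17.1% of all genes and 19.9% of the more abundant 50% of genes. Summed over the class, the scaled counts of the sterol genes were 90022, 46831 and 84963 in the MIC libraries against 90874, 53720 and 83969 in the non-MIC libraries. Those of the fatty acid synthesis genes were 76141, 49841 and 143240 in MICs against 103231, 77399 and 145604 in non-MICs, while those of triglyceride turnover stayed between 31382 and 41988. The difference between replicates of one number thus ran through both sorted populations and for 16 of the 17 sterol genes the SD between replicates was larger than the difference between the populations.
Replicate 2 also differed in markers of other cells. The summed counts of the 8 luminal markers, given above, were lowest in replicate 2 of both populations. The sum of the 7 immune markers in the table was 2060 and 1241 in replicate 2 and between 206 and 471 in the others, led by Lyz2, a lysozyme of macrophages, with 1635 in MIC replicate 2 and 834 in non-MIC replicate 2. The 5 endothelial markers in the table reached at most 21.1, and the 4 milk genes in the table summed to between 4929 and 10404 with none in 1 direction in all pairs. The part of these markers in the levels of the sterol genes was not tested.

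**Figure D4:**
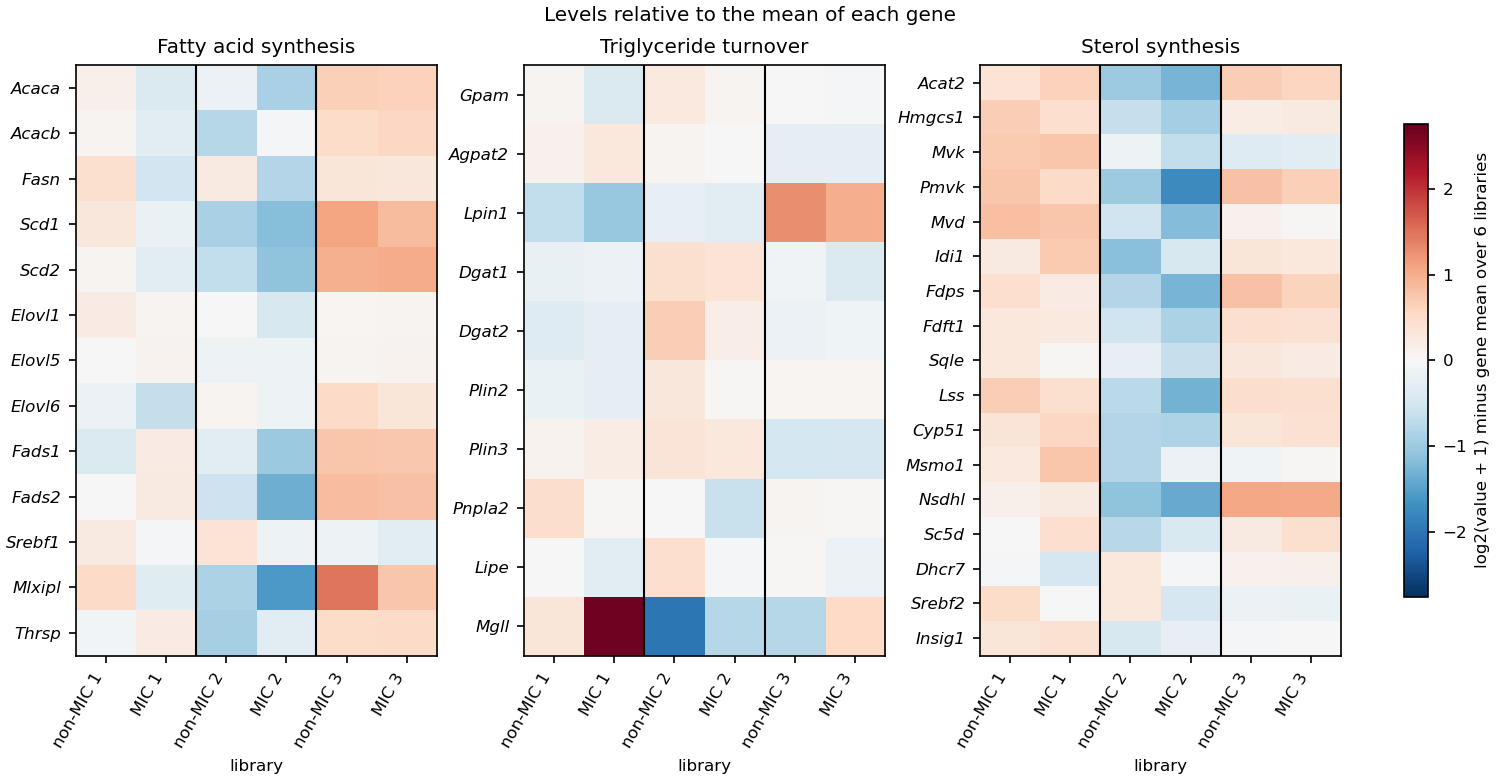
Departure of each of the 40 genes from its own mean over the 6 libraries, in log2(scaled count + 1), with red above and blue below the mean and black lines between the pairs. Most sterol and fatty acid synthesis genes are blue in both libraries of replicate 2, and Mgll is darkest red in MIC replicate 1.

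Levels were set side by side per length, as reads per kilobase of annotated exon scaled to library size (RPKM), computed here from the recovered reads and given as mean ± SD (n = 3). By the mean over replicates Plin2 had the highest level of the 40 genes, 200 ± 23.6 in MICs against 219 ± 36.4 in non-MICs. Scd2 followed with 165 ± 122 in MICs against 181 ± 102 in non-MICs, a spread that takes in the mean of Plin2, and in replicate 3 of both populations Scd2 was the higher of the pair of genes. Next came Fasn with 55.2 ± 23.5 in MICs against 83.7 ± 5.74 in non-MICs, Scd1 with 58 ± 39.4 in MICs against 71.3 ± 43.4 in non-MICs and Fads2 with 63.4 ± 38.9 in MICs against 65.9 ± 33.2 in non-MICs, and the spreads of these 3 and of Scd2 overlap. The highest sterol genes were Cyp51 with 62.4 ± 27.6 in MICs against 57.4 ± 22.1 in non-MICs and Hmgcs1 with 55.7 ± 24.3 in MICs against 61.3 ± 25.6 in non-MICs, which did not differ from each other beyond their spread. At the low end were Mgll with 2.44 ± 2.73 in MICs against 0.598 ± 0.444 in non-MICs, Dgat2 with 1.38 ± 0.216 in MICs against 1.55 ± 0.635 in non-MICs and Thrsp with 1.14 ± 0.314 in MICs against 0.961 ± 0.448 in non-MICs, whose spreads overlap in non-MICs. Lipe with 1.81 ± 0.156 in MICs against 2.3 ± 0.435 in non-MICs and Lpin1 with 2.42 ± 1.76 against 2.88 ± 2.16 had means below that of Mgll in MICs alone. The lowest were Mlxipl with 0.238 ± 0.179 in MICs against 0.405 ± 0.29 in non-MICs and Acacb with 0.0962 ± 0.0323 in MICs against 0.0904 ± 0.0385 in non-MICs. Both SREBP genes were well above Mlxipl, with 17.8 ± 1.36 in MICs against 22.6 ± 4.11 in non-MICs for Srebf1 and 25.8 ± 4.24 in MICs against 34.7 ± 7.83 in non-MICs for Srebf2. In triglyceride synthesis Dgat1, with 8.56 ± 2.47 in MICs against 9.2 ± 2.31 in non-MICs, stood above Dgat2 in both populations on this scale.

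Reads of some members can belong in part to near-identical or overlapping genes, since the counting rules are not given in the sources used here. Of the 75-base stretches of annotated exon, 33.9% in Acat2 also occur in other genes (Acat3 and Tcp1), 26.8% in Acaca, 23.6% in Idi1, 23.5% in Fdps and 21.8% in Fdft1 (Ctsb among them). The values of these 5 genes are therefore less certain. Matches on either strand were counted, and the shares are of sequence and not of reads. Hmgcs1 with 9.79% and Lipe with 8.68% follow, Scd1 shares 3.15% with its paralogs, Mgll 0.383%, and 21 members share none.

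No gene of the wider pathways passed in limma, without or with the block. Of 25 other genes of fatty acid supply and synthesis in the table, 6 stood higher and 6 stood lower in MICs in every pair. The 3 with the smallest p-values with the block were Hacd1 and Hacd2, dehydratases of fatty acid elongation, and Slc25a1, the mitochondrial citrate carrier that exports citrate for acetyl-CoA. Hacd1 had 1712, 574 and 443 in the MIC libraries and 1014, 381 and 351 in the non-MIC libraries, and Slc25a1 had 2182, 1677 and 2151 in MICs against 2885, 2413 and 2468 in non-MICs. Hacd1 and Hacd2 were higher in MICs in each pair, with log2 fold changes of 0.56 and 0.44, and Slc25a1 was lower in each, with -0.38 (limma with the block, adjusted p = 0.417, 0.423 and 0.425).
Of 23 other genes of triglyceride metabolism, 5 (21.7%) were higher and 5 (21.7%) lower in all pairs. Mogat2, a monoacylglycerol acyltransferase, had 102, 1 and 45 reads in the MIC libraries against 14, 0 and 23 in the non-MIC libraries, and passed in edgeR with the block (adjusted p = 0.0145) but not in limma (0.417) or DESeq2 (0.199) with the block. Pnpla3, a lipase relative of Pnpla2, had 3.23, 3.34 and 53.4 in the MIC libraries and 11.6, 7.4 and 84.9 in the non-MIC libraries, and Agpat1 had a log2 fold change of -0.36, and both stood lower in MICs in each pair without passing in any of the tests.
Of 23 other sterol genes, 5 (21.7%) were higher and 7 (30.4%) lower in all pairs. With the block in limma 0 of the 23 stood higher and 1 stood lower with a p-value under 0.05 before adjustment, against 5.24% and 5.97% of all genes. With the block in edgeR and in DESeq2, 3 of the 23 stood higher and 0 lower at that level. Of all genes, 1315 stood higher and 1306 lower in edgeR, and 1143 and 772 in DESeq2. Soat1, which esterifies cholesterol for storage, and Abca1, which exports it, had log2 fold changes of 0.55 and 0.52, with adjusted p-values of 0.447 and 0.452 in limma with the block.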

How the data were processed

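RNA was measured by stranded mRNA sequencing (TruSeq, 75 cycles, paired-end per the labels) in 3 libraries each of sorted MICs and non-MICs. The paper's methods name a Bowtie2/samtools pipeline on the GRCm38/mm10 transcriptome, while the submitters' processing notes name STAR and HTSeq, and versions, annotation release and strand setting are not given in the sources used here. The authors scaled the counts to the same total in every library. The deposited signal is these scaled gene counts, without correction for length, and no gene of the table is above 0 in fewer than 3 libraries. Within a tolerance of 0.01 read, between 99.97% and 99.99% of the values above 0 were whole multiples of the smallest value of their library, and the whole reads were recovered by division. These reads set counting error only, since no molecular identifiers were used. No other value column was present in the table.

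Symbols and positions came from GENCODE vM21 on GRCm38, which named 22161 of the 22310 identifiers, and promoter windows from RefSeq on GRCm38.p6. Values were tested as log2(value + 1) with limma 3.58.1 in R 4.3.3 (lmFit, eBayes with a trend), without a block after the study's unpaired ranking, with Benjamini-Hochberg adjustment over all genes at 0.05. The replicate numbers pair the libraries: departures from the population means of same-numbered libraries correlated across genes at 0.573, 0.668 and 0.746. Those of other libraries correlated at -0.33 on average. That negative value follows from the positive ones, since the departures of the 3 libraries of a population sum to 0, and is no separate evidence. The fit with the number as a block is therefore given where it changes a value of interest. The recovered reads were also tested without and with the block, by the quasi-likelihood test of edgeR 4.0.16 and by DESeq2 1.42.0. Other alternatives were 0.1 and 10 as pseudocounts, a filter on the median value, which left 37 of the 40 members, quantile normalization, TMM rescaling, limma without a trend, and leaving out each library or pair. The fits were tested on simulated data with known changes.

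The 40 members were listed by name and function, with no threshold on their values, but they, the wider lists and the marker lists were chosen with earlier results of these data known. Values of every library were printed for members with the same direction in all 3 pairs and for the 3 members of each class with the largest log2 fold change in size. From the wider lists the 3 genes with the smallest p-value with the block were named, except 1 sterol gene that is not reported here, from the marker lists counts, sums and the most abundant gene, and Thy1 and Cd24a as a check of the sort.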

Additional observations from a re-analysis of the deposited data

How the results depend on the processing

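The number of members called was 0 in all classes under most settings. Of the triglyceride genes, 1 (Mgll) passed in edgeR with the replicate block, in DESeq2 with it, and in limma with it and without replicate 2 of both populations, and leaving out libraries or pairs in limma otherwise gave 0. The block changed no other member's call. Over all genes the count of 0 became 29 with the block in limma, 315 in edgeR with the block, 1 in DESeq2 without it and 133 with it, between 0 and 59 when a library or pair was left out, and 11 with the block and without replicate 1.

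The median log2 fold change of the classes kept its sign under the other scalings, pseudocounts and tests, but not when single libraries were left out without the block. It ranged from -0.54 (without MIC replicate 3) to 0.11 (without MIC replicate 2) for fatty acid synthesis, from -0.24 (without non-MIC replicate 1) to 0.041 (without non-MIC replicate 2) for triglyceride turnover, and from -0.42 (without non-MIC replicate 2) to 0.28 (without MIC replicate 2) for sterol synthesis. It was also above 0 without non-MIC replicate 3, at 0.077 for fatty acid synthesis and 0.031 for sterol synthesis, and without non-MIC replicate 1 for sterol synthesis, at 0.085. With a whole pair left out and the block kept, the medians stayed below 0, and that of triglyceride turnover was -0.19 without replicate 3. These fits leave the pairs broken, except where both libraries of a number were left out, and the cause of the sign changes was not tested.

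Among genes in 1 direction in all pairs, TMM rescaling gave 2 lower triglyceride genes and 4 lower sterol genes, and quantile normalization gave 2 higher fatty acid genes, 5 higher sterol genes and 4 lower sterol genes. Counting over the remaining pairs with 1 pair left out, a setting chosen after seeing the data, gave between 1 and 2 higher fatty acid genes, between 1 and 4 higher triglyceride genes and between 3 and 5 higher sterol genes, and from 6 to 8, 5 to 6 and 7 to 9 lower genes.

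Of the 40 log2 fold changes, 26 changed sign in a fit without 1 library and 14 kept it, and 10 changed sign with a pair left out. The ranges over these fits were -0.23 to 0.42 for Acacb, -0.85 to 0.18 for Scd1, -0.81 to 0.25 for Scd2, -0.031 to 0.11 for Elovl5, -0.41 to 0.47 for Fads1, -0.63 to 0.44 for Fads2, -0.056 to 0.65 for Thrsp, -0.10 to 0.17 for Agpat2, -0.80 to 0.33 for Lpin1, -0.33 to 0.084 for Dgat1, -0.32 to 0.20 for Dgat2, -0.24 to 0.0015 for Plin2, -0.22 to 0.25 for Plin3, -0.52 to 0.27 for Hmgcs1, -0.57 to 0.18 for Mvk, -0.97 to 0.40 for Pmvk, -0.71 to 0.26 for Mvd, -0.11 to 0.69 for Idi1, -0.77 to 0.27 for Fdps, -0.43 to 0.28 for Fdft1, -0.42 to 0.011 for Sqle, -0.72 to 0.30 for Lss, -0.29 to 0.53 for Cyp51, -0.63 to 0.62 for Nsdhl, -0.079 to 0.30 for Insig1 and -0.54 to 0.60 for Acat2. With the block and both libraries of a number left out, the sign also changed for Acacb (-0.17), Dgat2 (0.080), Mvk (0.047), Nsdhl (0.045), Acat2 (0.090), Fads1 (0.30) and Fads2 (0.11) without replicate 2 and for Elovl5 (-0.0032), Agpat2 (-0.029) and Plin3 (-0.033) without replicate 1. Fads1 was at 0.017 with quantile normalization, 0.073 in edgeR, 0.098 in DESeq2 and 0.0017 in DESeq2 with the block, Fads2 at 0.015 in DESeq2, Nsdhl at 0.034 in edgeR and 0.062 in DESeq2, and Acat2 at 0.017 with quantile normalization, 0.075 in edgeR, 0.104 in DESeq2 and 0.0041 in DESeq2 with the block, all of them opposite in sign to the values of the report. With 3 libraries per population, the SD between replicates had a median of 0.57 over the members on the log2 scale, and the SD of the differences between pairs one of 0.22.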
